A study of Mus musculus with 10 samples.

Results

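Fam3c and Ube2h are 2 genes on mouse chromosome 6 that were joined often to a fixed DNA break after etoposide. They were chosen by the number and density of their junctions with etoposide in these libraries. Their levels with etoposide are therefore given as a description and not as a test. Their junctions were all those within either gene or 2 kb to each side, 107 of the 20682 junctions that lay more than 1 Mb from the break and outside antigen receptor loci. In all, 5925 of 21887 protein-coding genes held a junction in at least 1 library.

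The assay (HTGTS) reads, from a primer beside 1 induced break called the bait, the DNA to which the bait end has been joined, called the prey. All cells were Abelson-transformed pre-B cells of C57BL/6 origin with the genotype LIG4-/-, so that they lack the ligase of classical end joining. All were arrested in G1 with imatinib, and all made the bait break from a zinc-finger nuclease under doxycycline. The bait break lies at 41.6 Mb of chromosome 6 (mm10). The 10 libraries formed 8 groups. Etoposide was given at 50 µM for 2.5 h with 12 h of recovery, alone (n = 2), after IFN (n = 1) or after 2 h of DRB (n = 1). The libraries without etoposide were untreated (n = 2), IFN (n = 1), DRB (n = 1), AsiSI (n = 1) and DRB with AsiSI (n = 1). DRB blocks transcription, and AsiSI is a restriction enzyme, here induced with 1 µM tamoxifen 20 h after doxycycline. IFN is an abbreviation of the labels. The labels do not say how many cell lines or cultures were used, and groups of 1 library have no replicate check.

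Topoisomerase II relaxes DNA by cutting both strands, passing another duplex through the gap and sealing it again. Etoposide holds the enzyme on the cut DNA, so that some cuts remain as breaks that can join other ends. Fam3c encodes a secreted cytokine-like protein, also called ILEI, known for its part in the epithelial to mesenchymal transition. Ube2h encodes a ubiquitin-conjugating enzyme (an E2), which passes ubiquitin to targets of the CTLH ubiquitin ligase. That ligase is the mammalian counterpart of the yeast GID complex and acts in red cell maturation. The assay reads DNA, so the expression of either gene was not measured. Of the lineage checks it allows, the immunoglobulin kappa locus, which pre-B cells rearrange, held 25.9% and 64.9% of prey in untreated replicates 1 and 2. It held 1.91% and 11.3% in etoposide replicates 1 and 2, 9.25% with IFN and etoposide, and 44.9% with DRB and etoposide.

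Fam3c lies at 22306520 to 22356081 and Ube2h at 30211289 to 30304539 of chromosome 6 (GRCm38.p6, whose main chromosomes share coordinates with mm10). Both are transcribed from the minus strand, so that their start is the end nearer the bait. The genes end 19.2 Mb and 11.3 Mb before the bait. They are 49562 and 93251 bases long. Prey on the plus strand is read from the joint toward the bait, and prey on the minus strand away from it.

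The joints themselves are shown where junctions of different libraries lay within 30 bases of each other, since separate libraries reached nearly the same place there. Whether these places lie in repeated sequence was not tested. This held for 11 of 61 Fam3c and 6 of 46 Ube2h junctions. Each sequence is the deposited read from 15 bases of the bait, through the joint, to 25 bases of the prey. Capitals mark microhomology, the bases that fit both bait and prey, or, in the 1 case named, inserted bases. In Fam3c, 4 minus-strand joints lay between 22330699 and 22330746, in 3 libraries.
etoposide replicate 1, prey start 22330699, minus: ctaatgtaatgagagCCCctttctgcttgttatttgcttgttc
IFN with etoposide, prey start 22330714, minus: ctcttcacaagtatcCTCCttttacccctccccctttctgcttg
etoposide replicate 2, prey start 22330743, minus: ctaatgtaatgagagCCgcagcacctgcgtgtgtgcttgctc
etoposide replicate 1, prey start 22330746, minus: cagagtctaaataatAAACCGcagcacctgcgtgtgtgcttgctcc
The last pair began 3 bases apart, in different libraries and from different bait ends. Somewhat nearer the gene's start, 3 plus-strand joints of 2 libraries followed.
etoposide replicate 1, prey start 22330923, plus: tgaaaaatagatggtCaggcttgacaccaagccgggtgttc
etoposide replicate 1, prey start 22330942, plus: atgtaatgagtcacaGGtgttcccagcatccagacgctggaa
IFN with etoposide, prey start 22330948, plus: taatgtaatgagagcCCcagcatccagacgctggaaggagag
A further 4 plus-strand joints lay between 22332070 and 22332124, of which the joint at 22332105 carried 2 inserted bases.
IFN with etoposide, prey start 22332096, plus: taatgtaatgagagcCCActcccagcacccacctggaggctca
etoposide replicate 1, prey start 22332105, plus: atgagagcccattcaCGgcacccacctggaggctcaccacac

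In Ube2h the 6 such joints made 3 pairs at separate places, all on the minus strand. The pair with the most similar positions was 13 bases apart.
etoposide replicate 1, prey start 30290233, minus: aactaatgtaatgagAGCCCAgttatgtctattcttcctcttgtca
etoposide replicate 2, prey start 30290246, minus: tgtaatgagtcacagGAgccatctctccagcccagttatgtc
The others joined IFN with etoposide to etoposide replicate 1, at 30227983 and 30228009 (26 bases apart) and at 30278801 and 30278820 (19 bases apart).

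Junctions in Fam3c and Ube2h were seen in 3 libraries, all with etoposide, and in none of the 6 libraries without it. Fam3c held 38 and 11 junctions in etoposide replicates 1 and 2 and 0 in both untreated libraries. It held 12 with IFN and etoposide and 0 with IFN alone. It held 0 with DRB and etoposide, DRB, AsiSI, and DRB with AsiSI. Ube2h followed the same pattern with fewer junctions. It held 34 and 5 in etoposide replicates 1 and 2 and 0 in both untreated libraries, and 7 with IFN and etoposide against 0 with IFN alone. In the other 4 libraries it held 0. Over the 6 libraries without etoposide, 0 junctions among 31083 near the bait allow a rate of up to 0.0965 per 1000. This limit comes from 3 counts and, like all intervals here, covers counting error only.

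The size of the response depended on what it was set against, since the libraries joined the bait's own surroundings to very different degrees. Junctions within 1 Mb of the bait numbered 1198 and 4013 in etoposide replicates 1 and 2 and 1124 and 5273 in untreated replicates 1 and 2. Per 1000 of these, Fam3c reached 31.7 (exact 95% Poisson interval 22.4 to 43.5) and 2.74 (1.37 to 4.90) in the etoposide replicates. The untreated libraries allowed up to 2.67 and 0.569. The labels pair these libraries by number, naming each control. Within numbers, the measured Fam3c rate was 11.9-fold the untreated limit in replicate 1 and 4.82-fold in replicate 2. Such folds, called bounds here, leave out the counting error of the etoposide count. Etoposide and untreated replicate 1 shared a sequencing run, whereas etoposide replicate 2 and untreated replicate 2 came from different runs, so that for replicate 2 run and etoposide cannot be told apart. Ube2h reached 28.4 (19.7 to 39.7) and 1.25 (0.405 to 2.91) per 1000 in the etoposide replicates. These rates were 10.6-fold and 2.19-fold the untreated limits of the same replicate numbers. In replicate 2 the Ube2h interval, from 0.405, reached below the untreated limit of 0.569, so that no difference was secure there. With libraries pooled by group the bounds, made in the same way, were higher, 20.1-fold for Fam3c and 15.96-fold for Ube2h. The mean within-number log2 bounds were 2.92 and 2.27, against 4.33 and 4.0 pooled, since most etoposide junctions came from replicate 1 and most untreated ones near the bait from replicate 2. Both genes had both etoposide rates above both untreated rates, as did 80.3% of the 401 protein-coding genes with at least 5 junctions. Since this contrast chose the genes, nothing is read from that count.

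Of prey outside antigen receptor loci, Fam3c took 0.365% (exact 95% binomial interval 0.189 to 0.637) with IFN and etoposide, and 0.369% (0.261 to 0.506) and 0.334% (0.167 to 0.596) in etoposide replicates 1 and 2. The etoposide mean was 0.351% ± 0.0247 (SD, n = 2). Fam3c thus took about the same share of prey where its rate per junction near the bait differed 11.6-fold (95% interval 5.92 to 22.6) between the etoposide replicates. Ube2h varied more, with 0.213% (0.0856 to 0.438) with IFN and etoposide and 0.330% (0.229 to 0.461) and 0.152% (0.0493 to 0.354) in etoposide replicates 1 and 2. Its etoposide replicates differed 2.17-fold on this scale, with an interval of 0.850 to 5.56 that includes 1. On this scale no untreated library bounds the genes on its own, since their prey, 676 and 370 junctions, allows shares of up to 0.444% and 0.811%, above those measured with etoposide. Pooled by group, the smallest log2 ratio of etoposide to untreated was 0.33 for Fam3c and -0.000742 for Ube2h. These take the etoposide counts as exact, so that Ube2h was not bounded and the bound for Fam3c is not secure. The 6 libraries without etoposide, of several treatments and runs, together held 3535 such prey junctions, which allow up to 0.0849%. The measured shares of both genes lay above this in all 3 libraries that held them. The Ube2h interval in etoposide replicate 2, from 0.0493%, reached below it. With IFN and etoposide the Ube2h interval, from 0.0856%, began only just above it, so that no difference was secure for Ube2h in either library.

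**Figure D1:**
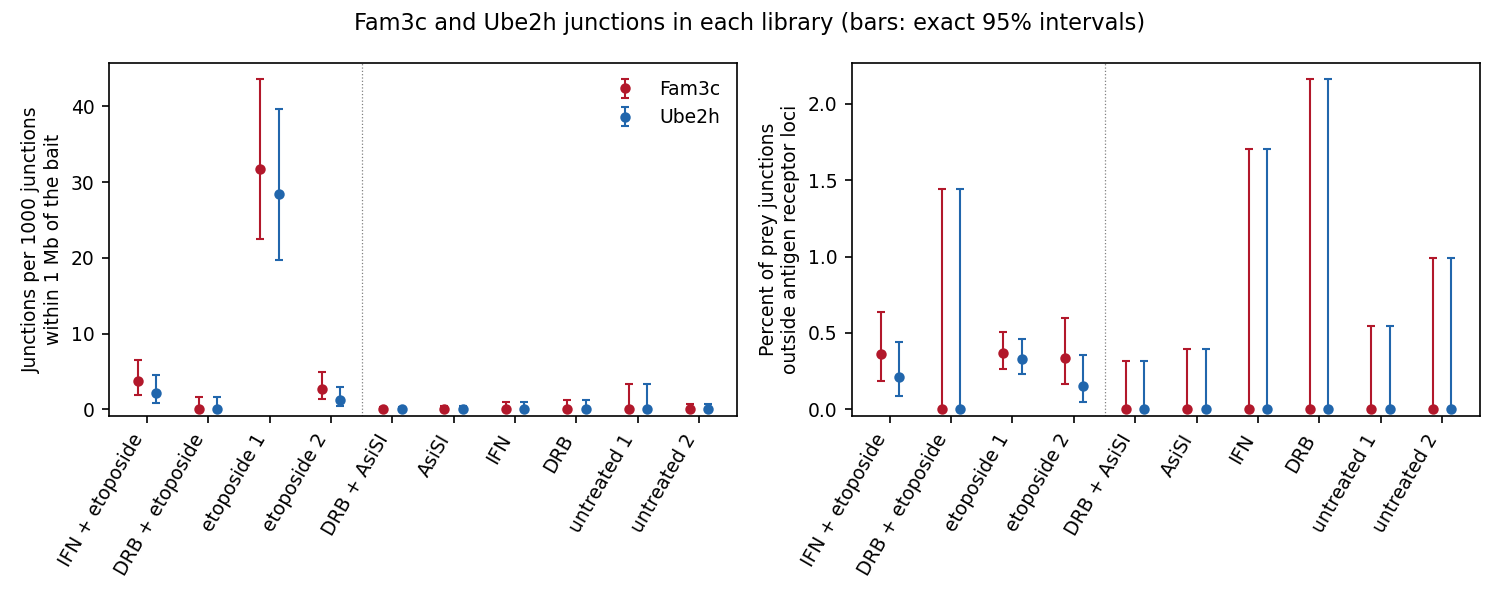
Junctions in Fam3c (red) and Ube2h (blue) in each of the 10 libraries, per 1000 junctions within 1 Mb of the bait (left) and as percent of prey outside antigen receptor loci (right). Points are values and bars exact 95% intervals for counting error. The dotted line parts the libraries with etoposide (left of it) from those without. Fam3c stands at 31.7 per 1000 in etoposide replicate 1 and 2.74 in replicate 2, but at 0.369% and 0.334% of prey.

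IFN and DRB, given before etoposide, were compared with etoposide alone. With IFN and etoposide, Fam3c had 3.73 junctions per 1000 near the bait, and Ube2h had 2.18. Against etoposide replicate 2, from the same sequencing run, the ratios were 1.36 (95% interval 0.601 to 3.09) for Fam3c and 1.75 (0.554 to 5.50) for Ube2h, and both intervals include 1. Neither gene was past 2-fold in that comparison, where 24% of 150 genes were at least 2-fold higher and 14.7% at least 2-fold lower. Against etoposide replicate 1, which the labels name as the control, the ratios were 0.118 (0.0615 to 0.225) and 0.0767 (0.0340 to 0.173). There, 97.7% of 387 genes were at least 2-fold lower. These genes passed a filter on sums that include etoposide replicate 1, so nothing is read from that share. Per prey junction the ratios to replicate 1 were 0.990 (0.517 to 1.89) for Fam3c and 0.646 (0.286 to 1.46) for Ube2h. Set against the limit of IFN alone, 0.826 per 1000, the measured rates with IFN and etoposide were 4.51-fold for Fam3c and 2.63-fold for Ube2h. The lower end of the Fam3c interval, 1.93 per 1000, lay above that limit and above 1.02, the upper end of the exact 95% interval of IFN alone. For Ube2h the lower end, 0.875, lay only just above the limit and below 1.02, so that no difference was secure there. Of 47 genes, 97.9% were at least 2-fold higher with IFN and etoposide than with IFN alone. Both genes were chosen for junctions with etoposide, so nothing is read from that share. These libraries also came from different runs, so that run and etoposide cannot be told apart.

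With DRB and etoposide both genes held 0 junctions, where 2255 junctions near the bait allow up to 1.33 per 1000. Fam3c in etoposide replicate 2 stood at 2.74 per 1000 (1.37 to 4.90), 2.06-fold that limit. The lower end of its interval lay only just above the limit. It lay below 1.64 per 1000, the upper end of the exact interval with DRB and etoposide. No difference was therefore secure for Fam3c against etoposide replicate 2, and 2.06-fold is not a secure minimum. Ube2h stood at 1.25, below the limit, so for it no difference was detectable against that library. Of 58 genes, 93.1% were at least 2-fold lower by count with 0.5 added, both of these among them. In etoposide replicate 1, which the labels name as the control, the measured rates were 23.8-fold (Fam3c) and 21.3-fold (Ube2h) the limit with DRB. There, 100% of 283 genes were at least 2-fold lower with DRB. These libraries came from different runs, so that run and DRB cannot be told apart. Both genes were chosen for junctions with etoposide, and the tested genes passed a filter on sums that include the etoposide library. Nothing is therefore read from the shares of genes called. As a share of prey no difference was detectable for either gene. The DRB and etoposide library held 254 prey junctions outside antigen receptor loci and allows up to 1.18%, above the 0.369% and 0.334% of Fam3c and the 0.330% and 0.152% of Ube2h in etoposide replicates 1 and 2. These ratios compare single libraries and not conditions.

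Summed over the 4 libraries with etoposide, Fam3c was the most densely joined of the 709 protein-coding genes of at least 10 kb on chromosome 6 away from the bait. Its 61 junctions in 53.6 kb made 1.14 per kb. Ube2h, with 46 junctions in 97.3 kb, made 0.473 per kb and ranked 29. Within single libraries Fam3c ranked 6 with IFN and etoposide and 2 in both etoposide replicates. Ube2h ranked 50 with IFN and etoposide and 20 and 108 in etoposide replicates 1 and 2, so that its summed rank rests on replicate 1. With IFN and etoposide Etnk1, an ethanolamine kinase gene, was the densest, at 0.350 per kb against 0.224 for Fam3c. The median gene had 0.0620 per kb and the 95th percentile was 0.444. By number of junctions the genes ranked 6 and 10. The gene next to Fam3c in density, Mturn, had 0.915 per kb and was named after its value was seen. The 3 other much-joined genes compared here lie nearer the bait, are longer and were less dense in the sum. Hipk2, a kinase gene of 188820 bases, had 65 junctions and 0.337 per kb. Braf, the kinase gene of the MAP kinase pathway, had 53 and 0.419 per kb, and Exoc4, an exocyst subunit gene of 724890 bases, had 114 and 0.156 per kb. Library by library this order did not hold for Ube2h. Its 0.0720 per kb with IFN and etoposide lay below the 0.0949 of Braf, and its 0.0514 in etoposide replicate 2 lay below the 0.158 of Braf and the 0.0882 of Hipk2. Density was part of how Fam3c and Ube2h were chosen, and these values carry no test.

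**Figure D2:**
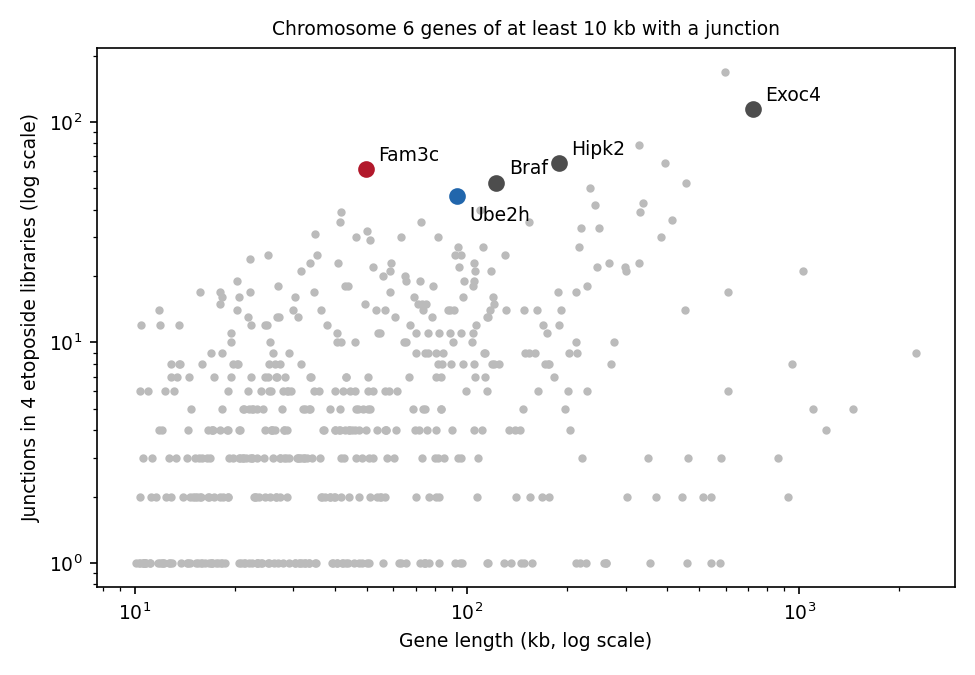
Junctions in the 4 libraries with etoposide (vertical, log scale) against gene length in kb (horizontal, log scale) for the chromosome 6 protein-coding genes of at least 10 kb that held a junction. Each point is 1 gene. Fam3c (red) has 61 junctions in 49562 bases and is the highest per kb, while Exoc4 has 114 in 724890 bases.

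The junctions were denser within the gene bodies than beyond them. Density in the genes was part of how they were chosen, so this contrast is given as a description. Of the Fam3c junctions 60 lay within the gene and 1 in the 2 kb to its sides, and all 46 of the Ube2h junctions lay within the gene. In the 100 kb upstream of Fam3c the 4 libraries with etoposide held 9 junctions (0.0900 per kb) and in the 100 kb downstream 4 (0.0400 per kb), against 1.14 per kb in the gene. For Ube2h the values were 7 (0.0700 per kb) upstream and 14 (0.140 per kb) downstream, against 0.473 per kb in the gene. Over 500 kb to each side the density was 0.0480 and 0.0420 per kb around Fam3c and 0.0520 and 0.0820 per kb around Ube2h. Without etoposide, 1 and 3 junctions lay in the upstream 100 kb of Fam3c and Ube2h.

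**Figure D3:**
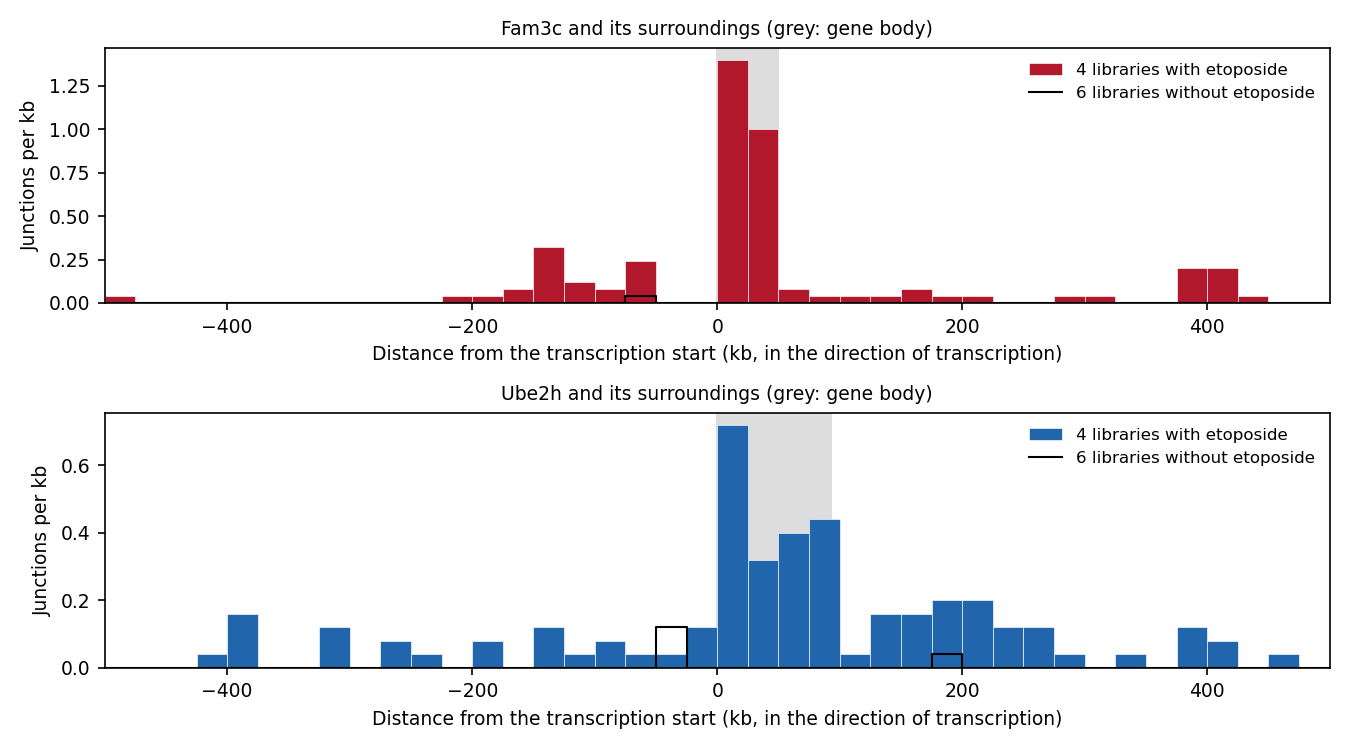
Junctions per kb in bins of 25 kb from 500 kb upstream to 500 kb downstream of the start of Fam3c (top) and Ube2h (bottom), in the direction of transcription. Bars sum the 4 libraries with etoposide and the black line the 6 without. Bins of the gene body (grey) are the highest, with 35 and 25 junctions in Fam3c and 18, 8, 10 and 11 in Ube2h.

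Of the 9 other protein-coding genes within 1 Mb of Fam3c, 5 held a junction with etoposide, where 62.4% of the protein-coding genes of chromosome 6 did. Ing3, a reader of histone marks in an acetyltransferase complex, and Cped1 had 8 each, at 0.263 and 0.0291 per kb. Kcnd2, a potassium channel gene of 514 kb, had 2, and Cadps2 and the ligand gene Wnt16 had 1 each. Around Ube2h, 26 of 31 neighbours held one. Nrf1, a transcription factor gene for nuclear genes of mitochondria, had 21 (0.192 per kb). Irf5, an interferon regulatory factor, had 17 (0.861 per kb), and Tnpo3, a nuclear import receptor gene that overlaps it in the annotation, had 16 (0.219 per kb), so that a junction in the overlap counts for both. Tsga13 had 12, Hilpda, a short gene, 11 (1.58 per kb, above Fam3c) and Copg2, a coat protein gene of transport vesicles, 9. Nrf1 was the only one of these 6 with a junction in the DRB and etoposide library, with 1, and it had 1 without etoposide.

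Within the genes, positions ran from near the start to the far end, unevenly. Fam3c junctions lay at a median of 24.0 kb from the start and Ube2h junctions at 31.5 kb. In Fam3c the densest 2 kb, found by search, held 16 of 61 junctions (26.2%) in 3.73% of the length, with 3 from IFN with etoposide and 11 and 2 from etoposide replicates 1 and 2. These lay between 22330699 and 22332428, 23.7 to 25.4 kb from the start, 10 on the plus and 6 on the minus strand, and include the Fam3c joints printed above. In Ube2h the densest 2 kb held 5 of 46 (10.9%), all from etoposide libraries without IFN. The longest stretch of Ube2h between junctions, also found by search, was 11.3 kb, 39.3 to 50.6 kb from the start. Whether it is longer than random placement would give was not tested. The junctions on its far side came mostly from 1 library, with 1 junction from IFN with etoposide and 17 and 2 from etoposide replicates 1 and 2. In 10 equal parts from the start, Ube2h held 7, 8, 5, 5, 1, 1, 4, 5, 8 and 2 junctions, and Fam3c 6, 11, 3, 4, 11, 14, 2, 3, 4 and 2, with its remaining junction past the gene's end.

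**Figure D4:**
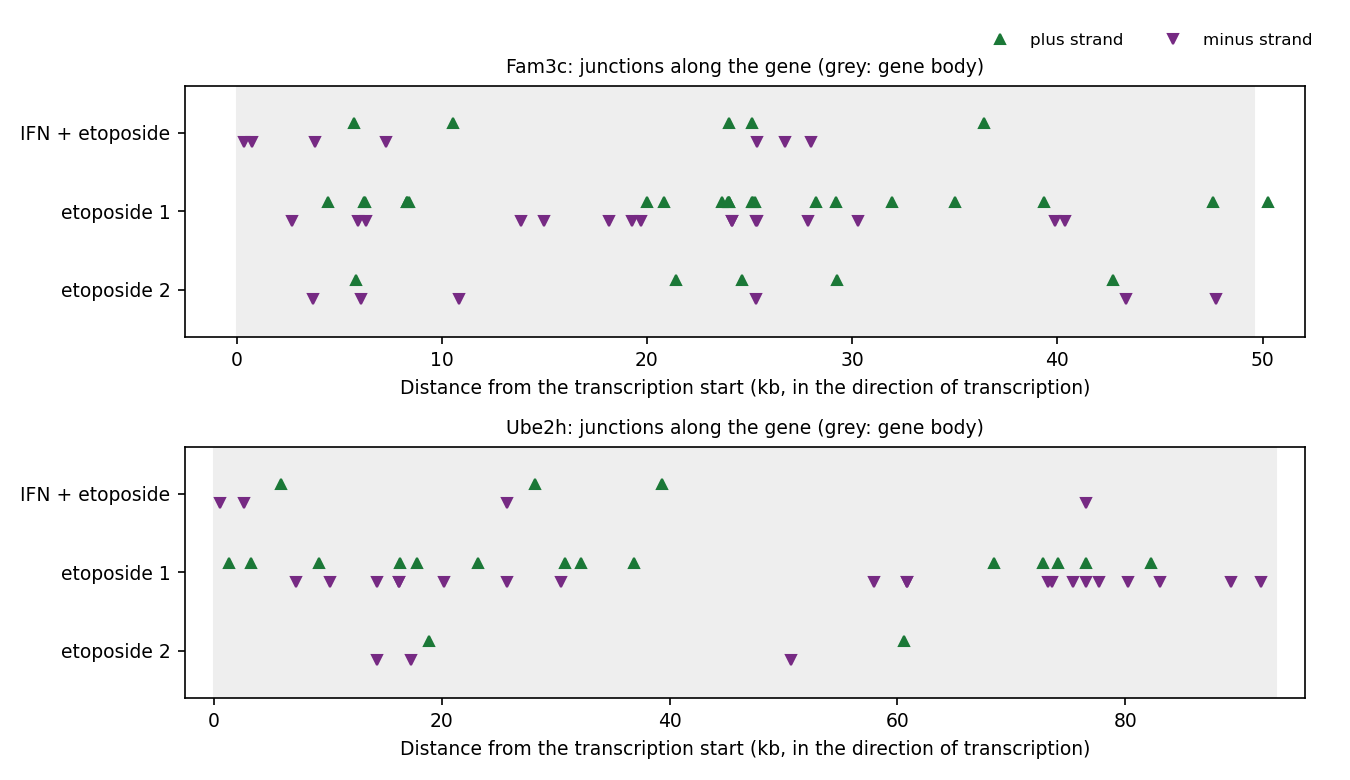
Each junction of Fam3c (top) and Ube2h (bottom) by its distance in kb from the transcription start, in the 3 libraries that held any. Upward triangles are plus-strand and downward triangles minus-strand prey, and grey marks the gene body. In Fam3c 16 of 61 junctions lie 23.7 to 25.4 kb from the start, and the longest empty stretch between Ube2h junctions runs from 39.3 to 50.6 kb. Both were found by search.

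The distance to the gene start did not choose the genes and was compared with that in other genes. Within 5 kb of the start lay 6 of 61 Fam3c junctions (9.84%) and 4 of 46 Ube2h junctions (8.70%), where that stretch makes up 13.1% and 7.20% of the length counted. In 398 other chromosome 6 genes of 20 to 200 kb it held 581 of 2489 junctions (23.3%) in 10.96% of the length. Fam3c had 3 of 12 near its start with IFN and etoposide and 2 of 38 and 1 of 11 in etoposide replicates 1 and 2. The mean difference to the other genes within libraries was -10.9 percentage points for Fam3c and -12.5 for Ube2h, lower in 2 of 3 libraries for both. In etoposide replicate 1 Fisher's exact test, two-sided, gave p = 0.00886 for Fam3c and 0.0198 for Ube2h. Neither passed after adjustment over 24 tests (0.213 and 0.238). The exact sign-flip permutation over 3 libraries, two-sided, gave p = 0.5 for both, and it cannot go below 0.25. With IFN and etoposide the shares, 25% and 28.6%, lay near the 24.3% of the other genes.

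The junctions nearest to these starts lay 347 bases from the Fam3c start and 593 bases from the Ube2h start, both with IFN and etoposide. The promoters printed here hold no junction of either gene. They are RefSeq windows of GRCm38.p6, from 250 bases before to 50 after the start, on the minus strand. Capitals mark CG pairs, which read the same on both strands.
Fam3c, chr6:22356032-22356331: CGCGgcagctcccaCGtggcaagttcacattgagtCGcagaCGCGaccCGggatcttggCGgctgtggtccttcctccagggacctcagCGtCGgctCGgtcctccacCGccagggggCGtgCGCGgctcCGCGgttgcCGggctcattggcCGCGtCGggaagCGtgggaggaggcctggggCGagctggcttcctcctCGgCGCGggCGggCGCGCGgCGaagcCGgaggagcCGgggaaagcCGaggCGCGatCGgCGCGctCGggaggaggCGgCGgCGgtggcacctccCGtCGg
Ube2h, chr6:30304490-30304789: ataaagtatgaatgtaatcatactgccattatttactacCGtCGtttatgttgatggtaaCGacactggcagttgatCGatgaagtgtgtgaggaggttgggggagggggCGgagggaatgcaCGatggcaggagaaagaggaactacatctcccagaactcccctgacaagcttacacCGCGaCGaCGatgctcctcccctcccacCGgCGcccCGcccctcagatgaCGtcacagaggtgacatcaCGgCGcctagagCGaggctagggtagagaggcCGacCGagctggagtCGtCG
The Fam3c window holds 45 CG pairs, at 75% G and C, more pairs than 98.1% of all 32851 such windows. The Ube2h window holds 21, at 56% G and C, more than 75.2% of them. The median window holds 7, and 94.6% of windows hold at least 1. Ube2h has a second annotated start, whose window at 30243754 to 30244053 holds 4 CG pairs. The etoposide replicate 2 junction at 30243929 lies inside that window, and 2 junctions of etoposide replicate 1 share the position 30243705, just outside it. Those 2 share the strand as well, with 24 and 23 bases lost from the bait end. Whether they are 1 joint was not tested.

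Strand and joint structure did not choose the genes and were tested. Fam3c had 32 junctions on the plus and 29 on the minus strand (52.5% plus) and Ube2h 19 and 27 (41.3% plus). Other chromosome 6 prey on the same side of the bait was 52.3% plus, 905 of 1731. The Fam3c share was 41.7% with IFN and etoposide and 57.9% and 45.5% in etoposide replicates 1 and 2. The Ube2h share was 42.9%, 41.2% and 40.0% in the same libraries, against 53.2%, 52.3% and 51.3% of the other prey. It was lower in 3 of 3 libraries, by a mean of 10.9 percentage points (SD 0.531), which gave the smallest p the exact sign-flip permutation allows, 0.25. Fisher's exact test within libraries gave adjusted p = 1 for both genes in all 3. Nearer the bait, Hipk2 was 66.2% plus (43 of 65) and Braf 79.2% (42 of 53), and farther away than these Exoc4 was 50.9% (58 of 114). These are given side by side with no test.

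Microhomology of at least 1 base marked 55 of 61 Fam3c joints (90.2%) and 41 of 46 Ube2h joints (89.1%), against 87.8% of other chromosome 6 prey (5535 of 6303). The median length was 3 bases in all 3 sets, and the longest was 11 in Fam3c and 9 in Ube2h. The Fam3c joint of 11 bases shares library, position and strand with 1 of 9 bases, and both were counted. Inserted bases were present in 2 Fam3c joints and 1 Ube2h joint, and 4 joints of each gene were direct. The mean differences in the microhomology share were 5.21 (SD 7.95) and -0.0956 percentage points (SD 16.0), within the spread between the 3 libraries, and Fisher's exact test gave adjusted p = 1 throughout. Joints of 6 bases made up 14.8% of Fam3c and 10.9% of Ube2h joints and 5.79% of the others, which was seen afterwards and not tested. The bait end had lost a median of 50 bases in Fam3c joints and 32.5 in Ube2h joints, against 51 elsewhere on chromosome 6 with etoposide. The low Ube2h median rested on etoposide replicate 1, since it was 51 with IFN and etoposide and 16.5 and 50 in etoposide replicates 1 and 2. These losses spread widely, with quartiles of 11 and 72 for Fam3c and 9 and 71 for Ube2h.

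**Figure D5:**
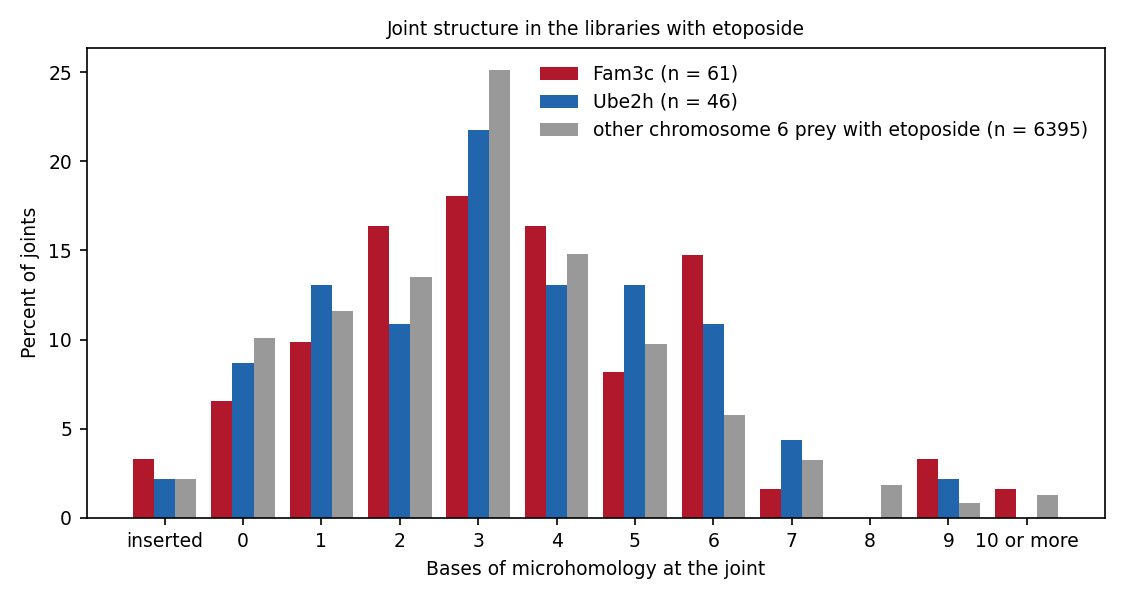
Percent of joints (vertical) with inserted bases or with each length of microhomology in bases (horizontal), for Fam3c, Ube2h and other chromosome 6 prey outside antigen receptor loci in the libraries with etoposide. Bars start at 0. The share peaks at 3 bases in all 3 sets, with 18.0% of Fam3c and 21.7% of Ube2h joints there.

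Members of the gene families and of the complex were counted in the same 4 libraries. The other 3 members of the FAM3 family, Fam3a, Fam3b and Fam3d, lie on other chromosomes and held 0 junctions with etoposide. Of 33 other ubiquitin-conjugating enzyme genes, none on chromosome 6, 17 (51.5%) held at least 1 junction with etoposide, with a median of 1. Over all 21885 other protein-coding genes 24.6% held 1, with a median of 0. Most joined were Ube2d2a with 4 (and 4 without etoposide) and Ube2d3 and Ube2n with 3 each, followed by Ube2g1 (and 6 without etoposide), Ube2g2, Ube2o and Ube2q2 with 2 each. Of the 11 CTLH subunit genes, with which the Ube2h protein works, 4 held a junction, with a median of 0. Mkln1, which encodes muskelin and lies on chromosome 6, had 16 and 3 in etoposide replicates 1 and 2, and 1 each with IFN and etoposide and with DRB and etoposide. It had 0 in all 6 libraries without etoposide. Rmnd5a, a RING subunit gene on the same chromosome, had 6, and Armc8 and Wdr26 had 3 each.

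Across the 10 libraries, other genes had the same order of rates. Of 72 protein-coding genes with at least 20 junctions, 13 had a Spearman rho of 1 with Fam3c and with Ube2h, over 10 libraries of which 7 hold 0 for both. With so many ties rho mostly says that these genes held junctions in the same 3 libraries. By number of junctions the highest were, beside Fam3c and Ube2h themselves, Etv6 with 50, Itpr1 with 43, Mical3 with 42 and Etnk1 with 39, all on chromosome 6. Etnk1 had 16 junctions with IFN and etoposide and 17 and 6 in etoposide replicates 1 and 2, where Fam3c had 12, 38 and 11.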

How the data were processed

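Genomic DNA of 10 libraries was read by linear-amplification-mediated translocation sequencing on the MiSeq, and its usual pipeline, per the labels' protocols. Per the file headers, each row the authors deposited is 1 junction with its position, strand and read. Bedtools, mm10 and GRCm38.p2 are named, per the submitters' processing notes. Each library held 2044 to 13425 junctions, and 83 off chromosomes 1 to 19, X and Y were left out. Read names place the libraries in 4 sequencing runs. Prey alignments were longer in the run of replicate 1 (medians of 252 and 270 bases, against 66 to 77 elsewhere). Nothing says that replicates came from separate cultures, so the permutation p-values measure only the spread between libraries. Fisher's p-values are taken within 1 library and cover only counting error among junctions. The labels pair etoposide and untreated libraries by number.

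Genes and starts came from RefSeq (GRCm38.p6). Receptor segment genes, 10 or more with gaps of at most 1 Mb, made an antigen receptor locus. Repeated positions were all counted. A gene with 0 junctions in a library was bounded by 3 counts. Folds against such a bound take the other library's count as exact. Ratio intervals are normal on the log scale and leave out the counting error of the denominators. Junctions that lie in overlapping genes counted for each. Shares were compared by Fisher's exact test with Benjamini-Hochberg adjustment over 24 tests, threshold 0.05, and by exact sign-flip permutation over libraries (Python 3.11.15, scipy 1.17.1, statsmodels 0.14.6). Genes were named by rule: both genes, up to 6 neighbours within 1 Mb, Exoc4, Hipk2, Braf, up to 6 members of each list, and 5 genes of like pattern. In simulated data the fold calls recovered the planted changes and also called unchanged genes, so they are used only to describe. Ube2q2, tied with the last of its list, was named in addition. The genes, lists and tests were chosen with earlier results of these data known. Positions were measured from the RefSeq start, where the planned test had allowed for both gene ends if no strand was known. Exons were not used here.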

Additional observations from a re-analysis of the deposited data

How the results depend on the processing

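The smallest log2 ratio of etoposide to untreated depended most on the scale, and then on single libraries. Pooled, it was 4.33 for Fam3c and 4.0 for Ube2h. With the replicate number as a block it was 2.92 and 2.27. Per prey junction outside antigen receptor loci it was 0.33 and -0.000742. These bounds take the etoposide counts as exact, so on that scale neither gene was securely bounded above untreated. Leaving out 1 library at a time gave 1.82 to 6.08 for Fam3c, the lowest without untreated replicate 2, and 1.41 to 5.92 for Ube2h, the lowest without etoposide replicate 1, with 1.49 without untreated replicate 2. Counting repeated positions once, other flanks and a 100-kb zone around the bait moved neither by more than the spread between replicates. The Fam3c difference in inserted bases, -0.453 percentage points, lay between -2.29 and 0.657 when an etoposide replicate was left out. In all, 45 of the recomputed values kept their side and direction, 9 moved and 2 turned, and no share passed the adjusted Fisher test under any alternative. The smallest adjusted p was 0.0596, for Fam3c within 2 kb of its start. With 5 and 7 Ube2h junctions in the libraries beside etoposide replicate 1, only large differences in share could be detected.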

Other observations

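Other dense genes of chromosome 6, named after their values were seen, were shorter than Fam3c and Ube2h. With etoposide, Tmem140 had 14 junctions in 11801 bases (0.886 per kb), Irf5 17 in 15740 (0.861 per kb), Apobec1, which encodes a cytidine deaminase, 25 in 25233 (0.855 per kb) and Etnk1, which encodes ethanolamine kinase, 39 in 41681 (0.854 per kb). All 4 held 0 junctions without etoposide. Zfp956, a zinc finger gene, had 12 junctions with etoposide and 20 without. Ptpn6, the phosphatase gene known as a brake on B cell receptor signalling, had 17 with and 1 without. Hilpda, near Ube2h and too short to be ranked at 2.96 kb, had 11 junctions (1.58 per kb, above the 1.14 of Fam3c), 3 with IFN and etoposide and 8 and 0 in etoposide replicates 1 and 2.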
